A study of Homo sapiens with 24 samples.

Results

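BH3-only genes encode small proteins that start apoptosis at the mitochondrion, and 8 of them were followed here: BBC3 (PUMA), PMAIP1 (NOXA), BCL2L11 (BIM), BMF, BID, BAD, BIK and HRK. They were chosen by name, and all 8 were among the 34213 genes of the count table. The cells were HEL, a human line grown from an erythroleukaemia with a JAK2 mutation that keeps the kinase active, and every group shares this background. RNA was sequenced from cells given ruxolitinib, fedratinib, momelotinib, pacritinib or itacitinib, each at 500 nM, or DMSO, the solvent control, and harvested at 48 h or 4 h. Each of the 12 combinations had 2 libraries, 24 in all. The labels give replicate numbers but not whether the 2 came from separate cultures, so p-values measure the spread between libraries, which may be technical.

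A BH3-only protein acts through a short helix, the BH3 domain, that fits a groove on the pro-survival proteins BCL2, BCL-XL (BCL2L1), MCL1 and BCL2L2. Filling that groove frees or activates BAX and BAK, which then permeabilise the outer mitochondrial membrane and release cytochrome c. Cells control BH3-only proteins by transcription, by mRNA and protein turnover and by phosphorylation, so an mRNA level is only one layer of that control. In JAK2-mutant erythroid cells, BIM is known as a mediator of death after JAK2 inhibition. Itacitinib is a JAK1-selective inhibitor, and the other 4 compounds inhibit JAK2.

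The 8 genes covered a wide span of abundance. In counts-per-million divided by kilobases of annotated exon (RPKM), BID averaged 17.1, PMAIP1 16.0 and BCL2L11 10.1 over the 24 libraries. BBC3 averaged 4.76 RPKM and BAD 4.38 RPKM, while BMF was at 0.303 RPKM. BIK averaged 0.172 RPKM and HRK 0.00229 RPKM, so the message of these 2 genes was barely present in HEL cells. BIK had 0 to 15 counts a library and was at 0 in 4 libraries. HRK had 16 counts in total and was at 0 in 16 libraries, where a count of 0 allows a level of up to 0.0642 to 0.0948 counts-per-million (CPM). These limits cover counting error only. HRK was therefore the 1 member that did not pass the filter on low counts, and 7 of the 8 genes were tested.

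**Figure D1:**
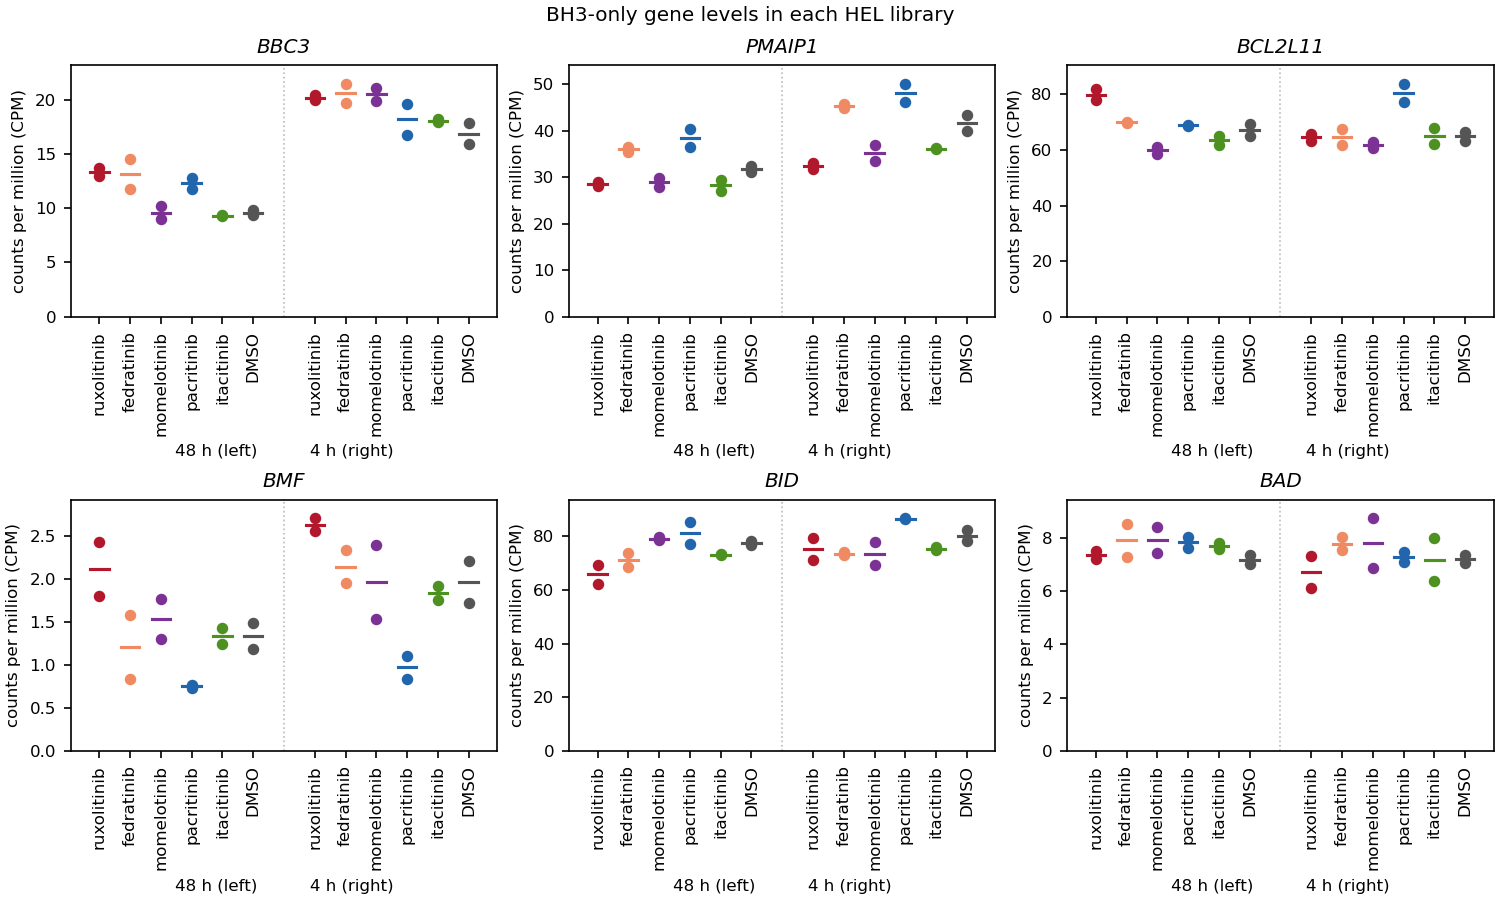
Levels of 6 BH3-only genes in counts-per-million (vertical axis, starting at 0) for each library (points) and each group mean (bars), with 48 h on the left and 4 h on the right of every panel and DMSO last within each time. BBC3 lies between 8.97 and 14.6 CPM at 48 h and between 15.9 and 21.5 CPM at 4 h, and BAD stays between 6.10 and 8.74 CPM throughout; BIK and HRK are near 0 and are not drawn.

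At most 3 of the 7 tested genes moved with any 1 inhibitor at any 1 time, and those that did moved by less than 1 doubling except BMF. A gene was called when its adjusted p was under 0.05 in edgeR's quasi-likelihood test, with Benjamini-Hochberg adjustment over all 16076 genes tested. At 48 h, ruxolitinib changed 3 of 7 members, against 25.9% of all genes tested. Pacritinib changed 2 of 7 (18.6% of all genes), fedratinib 1 of 7 (8.08%), momelotinib 0 of 7 (2.5%) and itacitinib 0 of 7 (0.541%). At 4 h, pacritinib changed 3 of 7 members (30.8% of all genes). Ruxolitinib changed 1 of 7 (8.72%), momelotinib 1 of 7 (6.3%), fedratinib 0 of 7 (1.85%) and itacitinib 0 of 7 (0.834%). In the comparisons with no call, the edgeR p was under 0.05 without adjustment for BBC3 and BID with fedratinib at 4 h, PMAIP1 with itacitinib at 4 h, BCL2L11 with momelotinib at 48 h and PMAIP1 with itacitinib at 48 h. DESeq2 also called 0 members in each of these 4. Over the 10 comparisons with DMSO, 11 of 70 member tests passed, beside 10.4% of all such tests over the transcriptome. The 5 comparisons at each time share the same 2 DMSO libraries.

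The median log2 fold change of the 7 tested members was 0.25 with ruxolitinib at 48 h and 0.14 with fedratinib at 48 h. At 4 h it was 0.11 with fedratinib and 0.10 with pacritinib. In the other comparisons with DMSO it lay between -0.08 (itacitinib at 48 h) and 0.07 (pacritinib at 48 h). The median over all genes tested lay between -0.0049 and 0.0066. The members did not move as 1 group: over the 12 group means of log2 CPM, the correlations between pairs of members ran between -0.58 and 0.64 for 21 pairs, with a median of -0.03. These are descriptions, since the group means share libraries and depth.

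**Figure D2:**
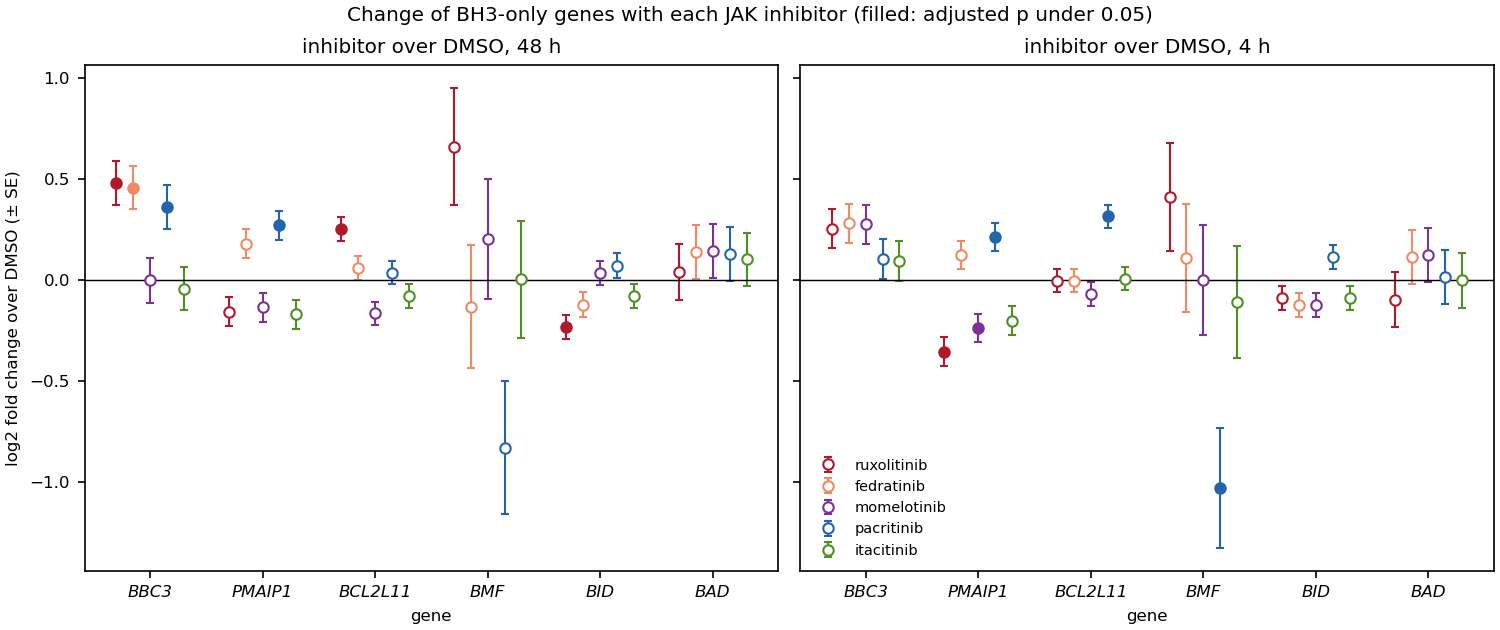
Log2 fold change over DMSO of the same time (vertical axis, points with bars of ± 1 SE) for 6 BH3-only genes and 5 inhibitors, 48 h on the left and 4 h on the right; filled points passed an adjusted p of 0.05. BBC3 is filled for ruxolitinib, fedratinib and pacritinib at 48 h, PMAIP1 lies below 0 with ruxolitinib and above 0 with pacritinib at 4 h, and BMF with pacritinib at 4 h is the lowest filled point at -1.03.

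BIM, PUMA and BID form the group of BH3-only proteins that can activate BAX and BAK directly, and BIM and PUMA bind all the main pro-survival proteins. BCL2L11, the BIM gene (ENSG00000153094, GRCh38 chr2:111119378-111168447, plus strand), rose with ruxolitinib at 48 h and with pacritinib at 4 h, and in no other comparison with DMSO. BIM protein is marked for degradation by ERK phosphorylation, and FOXO3 is a known activator of its gene. The region just upstream of its RefSeq start is shown because BCL2L11 is the member with a FOXO-type motif there. The capitals mark GTAAACA, 223 to 217 bases before the start, in the 250 bases at chr2:111120664-111120913 (plus strand, RefSeq on GRCh38.p14), which lie within the annotated span of the gene.
BCL2L11: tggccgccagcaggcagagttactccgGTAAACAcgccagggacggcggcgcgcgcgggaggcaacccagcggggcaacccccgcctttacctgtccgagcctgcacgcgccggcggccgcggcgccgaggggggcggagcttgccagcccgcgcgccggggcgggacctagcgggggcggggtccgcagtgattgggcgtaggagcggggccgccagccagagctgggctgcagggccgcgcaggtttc

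At 48 h, BCL2L11 was at 81.9 and 77.9 CPM with ruxolitinib, against 65.0 and 69.4 CPM with DMSO. Both ruxolitinib libraries stood above both DMSO libraries, and the log2 fold change was 0.25 ± 0.06 (SE; adjusted p = 0.000712). With the other 4 inhibitors at 48 h, BCL2L11 lay between 58.7 and 70.1 CPM and was not called. Momelotinib had the lowest pair of libraries, 58.7 and 61.0 CPM, both below the DMSO libraries (-0.17 ± 0.06, adjusted p = 0.127).

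At 4 h the order was different. Pacritinib libraries were at 77.3 and 83.8 CPM, against 66.5 and 63.2 CPM with DMSO, a log2 fold change of 0.31 ± 0.06 (adjusted p = 2.8e-05). Ruxolitinib libraries at 4 h, with 63.3 and 65.9 CPM, overlapped the DMSO libraries. The remaining 3 inhibitors gave 60.6 to 68.0 CPM at 4 h, and none was called. Both calls against DMSO held when any 1 of the 4 libraries was left out (adjusted p up to 0.0399 for ruxolitinib at 48 h and up to 0.00486 for pacritinib at 4 h).

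Whether the effect of an inhibitor on BCL2L11 differed between the times was tested directly. The ruxolitinib effect was 0.25 ± 0.08 larger at 48 h than at 4 h on the log2 scale (adjusted p = 0.0402, with 9.08% of all genes called). The pacritinib effect was 0.28 smaller at 48 h (-0.28 ± 0.08, adjusted p = 0.0124, with 18.4% of all genes called). The ruxolitinib call was lost without any 1 of its 8 libraries other than DMSO 48 h replicate 2 (adjusted p = 0.0508 to 0.207). The pacritinib call was lost without DMSO 4 h replicate 2 (adjusted p = 0.0667), pacritinib 4 h replicate 2 (adjusted p = 0.106) or DMSO 48 h replicate 2 (adjusted p = 0.0794). These were the 2 calls among 35 member tests of this kind, against 6.9% of all such tests. Fedratinib (4.26% of all genes called), momelotinib (2.69%) and itacitinib (0.0%) gave 0 of 7 each by edgeR, with 0 under an unadjusted p of 0.05 and 0 by DESeq2. Ranked by mean CPM, pacritinib at 4 h (80.5 ± 4.6, SD, n = 2) and ruxolitinib at 48 h (79.9 ± 2.8, SD, n = 2) led the 12 groups with overlapping libraries. The next group, fedratinib at 48 h, was at 70.0 ± 0.14 CPM (SD, n = 2), clear of both. From pacritinib at 48 h down to momelotinib at 48 h (59.8 ± 1.6, SD, n = 2), each group overlapped its neighbour.

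The exons of BCL2L11 overlap those of MIR4435-2HG, a long non-coding RNA on the opposite strand, over 727 bases, and the labels do not state whether counting used strand. Reads from this stretch cannot be told apart without strand. MIR4435-2HG itself was higher with ruxolitinib at 48 h (0.20 ± 0.05, adjusted p = 0.00422), and with pacritinib at 4 h it was at 0.13 ± 0.05 (adjusted p = 0.0533). Its difference between the times was 0.15 for ruxolitinib (adjusted p = 0.238) and -0.05 for pacritinib (adjusted p = 0.734). The part of these reads in the BCL2L11 values was not tested.

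BBC3, the PUMA gene (ENSG00000105327, chr19:47220822-47232766, minus strand), is a classic p53 target that is also reached by p53-independent routes such as FOXO3 and endoplasmic reticulum stress. It fell with time in DMSO alone, and at 48 h it was higher with ruxolitinib, fedratinib and pacritinib than with DMSO. Upstream of its RefSeq start stands an E-box, CACGTG, in capitals below, 232 to 227 bases before the start. The stretch shown is the 151 bases at chr19:47232767-47232917, read on the minus strand, that precede the annotated exon.
BBC3: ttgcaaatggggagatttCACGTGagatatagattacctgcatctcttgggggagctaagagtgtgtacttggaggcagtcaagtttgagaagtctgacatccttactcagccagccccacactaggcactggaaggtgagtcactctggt

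In DMSO alone, BBC3 fell to 9.36 and 9.83 CPM at 48 h, against 15.9 and 17.8 CPM at 4 h. The log2 fold change was -0.82 ± 0.10 (adjusted p = 1.78e-07), and it stayed between -0.90 and -0.73 when any 1 of the 4 libraries was left out. PMAIP1 was the other member called in this comparison, so 2 of 7 members fell, against 8.67% of all genes changed in either direction.

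At 48 h the groups separated into a higher and a lower set. Ruxolitinib libraries were at 13.7 and 13.0 CPM, fedratinib libraries at 14.6 and 11.8 CPM and pacritinib libraries at 11.8 and 12.8 CPM, against 9.36 and 9.83 CPM with DMSO. Each of these 6 libraries stood above both DMSO libraries. Momelotinib libraries, with 10.2 and 8.97 CPM, spanned the DMSO values, and itacitinib libraries, with 9.35 and 9.27 CPM, lay just below them. The log2 fold changes were 0.48 ± 0.11 for ruxolitinib (adjusted p = 0.000511), 0.45 ± 0.11 for fedratinib (adjusted p = 0.00411) and 0.36 ± 0.11 for pacritinib (adjusted p = 0.0146).

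Of these, the ruxolitinib call held in each fit with a library left out (adjusted p up to 0.0147). The fedratinib value became 0.30 (adjusted p = 0.243) without fedratinib 48 h replicate 1 and also lost its call without DMSO 48 h replicate 1 (adjusted p = 0.0651). The pacritinib call was lost without DMSO 48 h replicate 1 (adjusted p = 0.123), DMSO 48 h replicate 2 (adjusted p = 0.0575) or pacritinib 48 h replicate 2 (adjusted p = 0.167).

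At 4 h, BBC3 was at 20.4 and 19.96 CPM with ruxolitinib, 21.5 and 19.7 CPM with fedratinib and 21.1 and 19.9 CPM with momelotinib, against 15.9 and 17.8 CPM with DMSO. All 6 libraries were above both DMSO libraries, but none of the 3 differences was called: the log2 values were 0.25 ± 0.10 (adjusted p = 0.106), 0.28 ± 0.10 (adjusted p = 0.136) and 0.27 ± 0.10 (adjusted p = 0.0835). Pacritinib (0.10 ± 0.10) and itacitinib (0.09 ± 0.10) were nearer to DMSO. The difference of effect between the times was not called for BBC3 with any inhibitor (largest -0.28 ± 0.15 for momelotinib, adjusted p = 0.418). Down the order of group means, led by fedratinib at 4 h (20.6 ± 1.2 CPM, SD, n = 2), 4 of the 11 neighbouring pairs did not overlap: ruxolitinib against pacritinib at 4 h, itacitinib against DMSO at 4 h, DMSO at 4 h against ruxolitinib at 48 h, and pacritinib against DMSO at 48 h. The lowest group was itacitinib at 48 h (9.31 ± 0.06 CPM, SD, n = 2). Pairs without overlap were not counted over all genes, so the 4 describe this order only.

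BID (ENSG00000015475, chr22:17734138-17774770, minus strand) encodes the protein that caspase-8 cleaves to carry a death-receptor signal to the mitochondrion. It was the most abundant member per length, and its group means differed by at most 1.32 times. The 1 call against DMSO was a fall with ruxolitinib at 48 h, with 69.4 and 62.4 CPM, against 76.7 and 78.1 CPM with DMSO (-0.23 ± 0.06, adjusted p = 0.00259). Both ruxolitinib libraries were below both DMSO libraries, but without ruxolitinib 48 h replicate 2 the call was lost (-0.16, adjusted p = 0.13). Pacritinib at 4 h gave the highest group, 86.5 and 86.8 CPM, against 82.2 and 78.3 CPM with DMSO, and this was not called (0.11 ± 0.06, adjusted p = 0.152). In the order of the 12 group means, 2 neighbouring pairs did not overlap, pacritinib at 4 h against pacritinib at 48 h and momelotinib against DMSO at 48 h. The same count was not made over all genes.

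The remaining members are sensitisers, which occupy pro-survival proteins without strongly activating BAX or BAK themselves. PMAIP1, the NOXA gene (ENSG00000141682, chr18:59899948-59904306, plus strand), encodes a partner of MCL1 that promotes its degradation, and the gene responds to p53 and to ATF4. It moved in opposite directions with different inhibitors: lower with ruxolitinib and momelotinib at 4 h, and higher with pacritinib at both times. A short CRE-type motif, the kind of element that ATF and CREB factors bind, lies 56 to 51 bases before the RefSeq start. It is in capitals as ACGTCA, the minus-strand reading of TGACGT, in the 202 bases at chr18:59899746-59899947 (plus strand).
PMAIP1: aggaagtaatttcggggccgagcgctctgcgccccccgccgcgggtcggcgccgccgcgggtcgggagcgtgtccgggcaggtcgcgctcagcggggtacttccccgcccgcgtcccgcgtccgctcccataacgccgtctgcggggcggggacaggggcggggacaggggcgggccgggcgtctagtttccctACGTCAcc

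At 4 h, PMAIP1 was at 33.1 and 31.8 CPM with ruxolitinib, against 43.3 and 39.8 CPM with DMSO. This was a log2 fold change of -0.36 ± 0.07 (adjusted p = 0.000339), and the call held in each fit with a library left out (adjusted p up to 0.0228). Momelotinib libraries, at 33.4 and 37.0 CPM, were also below both DMSO libraries (-0.24 ± 0.07, adjusted p = 0.0276). That call was lost without DMSO 4 h replicate 1 (adjusted p = 0.284) or momelotinib 4 h replicate 1 (adjusted p = 0.278). Itacitinib libraries, at 36.3 and 35.9 CPM, lay below the DMSO libraries without a call (-0.20 ± 0.07, adjusted p = 0.201).

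Pacritinib gave the highest PMAIP1 of any group at 4 h, 46.1 and 50.1 CPM, against 43.3 and 39.8 CPM with DMSO (0.21 ± 0.07, adjusted p = 0.0146). At 48 h it was at 40.2 and 36.5 CPM with pacritinib, against 32.4 and 31.2 CPM with DMSO (0.27 ± 0.07, adjusted p = 0.00512). The libraries did not overlap at either time. The 4 h call was lost without DMSO 4 h replicate 2 (adjusted p = 0.224) or pacritinib 4 h replicate 2 (adjusted p = 0.192), and the 48 h call without DMSO 48 h replicate 2 (adjusted p = 0.0876) or pacritinib 48 h replicate 1 (adjusted p = 0.166). Fedratinib libraries were above DMSO at both times without a call, at 35.5 and 36.5 CPM at 48 h (0.18 ± 0.07, adjusted p = 0.119) and 45.7 and 44.8 CPM at 4 h (0.12 ± 0.07, adjusted p = 0.432). In DMSO alone, PMAIP1 fell to 32.4 and 31.2 CPM at 48 h, against 43.3 and 39.8 CPM at 4 h (-0.38 ± 0.07, adjusted p = 0.000177). Of the 11 neighbouring pairs in the order of group means, 5 did not overlap. Pairs without overlap were not counted over all genes, so the 5 describe this order only. It ran between pacritinib at 4 h (48.1 ± 2.8 CPM, SD, n = 2) and itacitinib at 48 h (28.2 ± 1.6 CPM, SD, n = 2).

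BMF (ENSG00000104081, chr15:40087890-40108892, minus strand) encodes a BH3-only protein held on the cytoskeleton by dynein light chain. Its message was scarce, with 25 to 106 counts a library, and it showed the widest range of the members that were well above 0, a highest group 3.5 times the lowest. With pacritinib at 4 h it was at 1.10 and 0.842 CPM, against 1.72 and 2.22 CPM with DMSO. The log2 fold change was -1.03 ± 0.30 (adjusted p = 0.00581). At 48 h pacritinib libraries had 0.770 and 0.736 CPM, against 1.49 and 1.19 CPM with DMSO, which was not called (-0.83 ± 0.33, adjusted p = 0.0713). Pacritinib libraries lay below DMSO libraries at both times. The 4 h call was lost without DMSO 4 h replicate 2 (adjusted p = 0.114) or pacritinib 4 h replicate 2 (adjusted p = 0.105).

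Ruxolitinib lay on the other side of DMSO for BMF, with 1.81 and 2.43 CPM at 48 h against 1.49 and 1.19 CPM with DMSO (0.66 ± 0.29, adjusted p = 0.0888). At 4 h ruxolitinib libraries had 2.56 and 2.71 CPM, against 1.72 and 2.22 CPM with DMSO (0.41 ± 0.27, adjusted p = 0.437). Libraries did not overlap at either time, and neither value was called. The 95% interval at 48 h ran between 0.08 and 1.24, so at these counts a rise of more than a doubling or almost none could both hold. An antisense gene, BMF-AS1, shares 461 exonic bases with BMF on the opposite strand, and it was not analysed here.

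BAD (ENSG00000002330, chr11:64269830-64284704, minus strand) encodes a sensitiser that survival kinases such as AKT and PIM switch off by phosphorylation. It ranged between 6.10 and 8.74 CPM, was called in none of the 36 comparisons, and had group means within 1.18 times of each other. Its exons overlap 404 bases of GPR137 on the opposite strand, and reads from this stretch cannot be told apart without strand. GPR137 had 41105 counts in total, against 7030 for BAD. Against DMSO, GPR137 was higher at 48 h with ruxolitinib (0.28 ± 0.07, adjusted p = 0.000813) and fedratinib (0.20 ± 0.07, adjusted p = 0.0479). It was called in no other comparison with DMSO. The part of these reads in the BAD values was not tested. BIK (ENSG00000100290, chr22:43110748-43129712, plus strand), whose product sits on the endoplasmic reticulum, was called in none of the 36 comparisons either, and at up to 15 counts a library a difference was not detectable at this depth. HRK (ENSG00000135116, chr12:116856144-116881441, minus strand), best known from neurons, reached 5 counts in 1 itacitinib library at 48 h and was not tested.

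The motif search covered the 250 bases before each RefSeq start, on both strands, in 35116 windows of all genes, and 7 of the 8 members matched 13 of these windows. GTAAACA (FOXO) was in 1 member window, that of BCL2L11, and in 2.98% of all windows. TGACGT (CRE type) was in 3 member windows, of PMAIP1 and BAD, and in 7.1% of all windows. CACGTG (E-box) was in 3 member windows, of BBC3 and BID, and in 6.34% of all windows. TTCNNNGAA, the letters of a STAT site, was in 0 of 13 member windows and in 6.57% of all windows. GGGCGG (SP1 GC box) was in 10 of the 13 member windows and in 42.6% of all windows. The motifs were searched separately, windows of the same gene can overlap, and a match describes letters only.

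Set against each other at the same dose and time, the inhibitors differed in up to 4 of the 7 tested members. All 10 pairs were compared at each time, with p-values adjusted over all genes within each pair. Pairs with an inhibitor in common share its libraries, so the 70 member tests at a time are not independent. At 48 h, 24 of 70 member tests passed, against 14.0% of all such tests, and 11 of the 24 involved pacritinib, as did 43.6% of the calls over all genes. At 4 h, 18 of 70 passed, against 12.1% of all such tests, and 15 of the 18 involved pacritinib, as did 86.6% of the calls over all genes. BCL2L11, BMF and BID each differed between pacritinib and all 4 other inhibitors at 4 h. BCL2L11 and BID were higher and BMF lower with pacritinib in each of those pairs. These pairs called 25.9% (ruxolitinib), 28.9% (fedratinib), 21.1% (momelotinib) and 29.3% (itacitinib) of all genes. The 3 calls at 4 h without pacritinib were all PMAIP1, with fedratinib above ruxolitinib (3.87% of all genes called), momelotinib (1.61%) and itacitinib (0.454%). BBC3 differed in 0 pairs at 4 h and in 6 pairs at 48 h, each of which set ruxolitinib, fedratinib or pacritinib above momelotinib or itacitinib. Between 6.23% (fedratinib against itacitinib) and 22.2% (ruxolitinib against itacitinib) of all genes were called in these 6 pairs.

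Some of these pair differences rested on 1 library. With libraries left out singly, the 4 BCL2L11 calls at 4 h and both BBC3 calls of ruxolitinib at 48 h held. The BMF calls at 4 h were lost without pacritinib 4 h replicate 2 against fedratinib, momelotinib and itacitinib (adjusted p = 0.063, 0.143 and 0.189), against momelotinib without momelotinib 4 h replicate 2 (0.253) and against itacitinib without itacitinib 4 h replicate 1 (0.09). The BID calls at 4 h were lost against ruxolitinib without ruxolitinib 4 h replicate 2 (0.243) or pacritinib 4 h replicate 2 (0.059), against momelotinib without momelotinib 4 h replicate 2 (0.117) and against itacitinib without itacitinib 4 h replicate 2 (0.0535). PMAIP1 kept its call between ruxolitinib and fedratinib at 4 h. It lost it between fedratinib and momelotinib without momelotinib 4 h replicate 1 (0.0643), and between fedratinib and itacitinib without fedratinib 4 h replicate 1 (0.146), fedratinib 4 h replicate 2 (0.109) or itacitinib 4 h replicate 2 (0.319). BBC3 at 48 h lost its fedratinib calls without fedratinib 48 h replicate 1 (0.211 against momelotinib and 0.181 against itacitinib) and, against momelotinib, without momelotinib 48 h replicate 2 (0.127). Its pacritinib calls were lost without pacritinib 48 h replicate 2 (0.231 against momelotinib and 0.0968 against itacitinib), pacritinib 48 h replicate 1 (0.0642, momelotinib), momelotinib 48 h replicate 2 (0.335) or itacitinib 48 h replicate 2 (0.0533).

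Ruxolitinib and itacitinib are built on the same pyrrolopyrimidine core joined to a pyrazole, and differ in what the pyrazole carries, a cyclopentyl propanenitrile in ruxolitinib and a substituted azetidine acetonitrile in itacitinib. At 48 h they differed in BBC3 and BCL2L11, 2 of 7 members, against 22.2% of all genes. BBC3 was at 13.7 and 13.0 CPM with ruxolitinib and 9.35 and 9.27 CPM with itacitinib (0.52 ± 0.10, adjusted p = 0.000121). BCL2L11 was at 81.9 and 77.9 CPM with ruxolitinib and 61.8 and 65.2 CPM with itacitinib (0.33 ± 0.06, adjusted p = 1.21e-05). Ruxolitinib was the higher of the pair in both genes. At 4 h they differed in 0 of 7 members by edgeR and by DESeq2 (6.19% of all genes), with PMAIP1 under an unadjusted p of 0.05. The 95% intervals at 4 h were -0.04 to 0.36 for BBC3, -0.30 to -0.01 for PMAIP1 and -0.13 to 0.11 for BCL2L11 on the log2 scale.

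Momelotinib and pacritinib are both anilinopyrimidines, and pacritinib closes its chain into a macrocycle. They differed in 4 of 7 members at 48 h (8.29% of all genes) and in 4 of 7 at 4 h (21.1% of all genes). PMAIP1 was at 28.0 and 29.9 CPM with momelotinib and 40.2 and 36.5 CPM with pacritinib at 48 h (-0.40 ± 0.07, adjusted p = 7.71e-05). At 4 h it was at 33.4 and 37.0 CPM with momelotinib and 46.1 and 50.1 CPM with pacritinib (-0.45 ± 0.07, adjusted p = 2.71e-06). Momelotinib was the lower at both times, with no overlap. BMF ran the other way at both times (1.03 ± 0.32 at 48 h, adjusted p = 0.035, and 1.03 ± 0.30 at 4 h, adjusted p = 0.00892). BCL2L11 was lower with momelotinib at both times (-0.20 ± 0.06 and -0.38 ± 0.06), BBC3 was lower at 48 h (-0.36 ± 0.11) and BID was lower at 4 h (-0.24 ± 0.06). The PMAIP1 calls and the BCL2L11 call at 4 h held in each fit with 1 library left out. At 48 h the BCL2L11 call was lost without any 1 of the 4 libraries (adjusted p = 0.0751 to 0.225), and those of BBC3 and BMF without momelotinib 48 h replicate 2, pacritinib 48 h replicate 1 or pacritinib 48 h replicate 2 (0.0642 to 0.335 for BBC3 and 0.168 to 0.344 for BMF).

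Fedratinib, a dianilinopyrimidine, differed from pacritinib in 1 of 7 members at 48 h, BID (-0.19 ± 0.06, adjusted p = 0.0248, with 12.4% of all genes called), a call lost without fedratinib 48 h replicate 2 (0.281) or pacritinib 48 h replicate 1 (0.406). At 4 h it differed from pacritinib in BCL2L11, BMF and BID (28.9% of all genes). Ruxolitinib and momelotinib, which share no core, differed in 0 of 7 members at 4 h by edgeR, with 0 under an unadjusted p of 0.05 and 0 by DESeq2 (0.753% of all genes). At 48 h the same pair differed in BBC3 (0.48 ± 0.11), BCL2L11 (0.42 ± 0.06) and BID (-0.26 ± 0.06), with 21.2% of all genes called. The BID call was lost without ruxolitinib 48 h replicate 2 (adjusted p = 0.0743). Momelotinib and itacitinib differed in 0 of 7 at both times by edgeR, with 0 under an unadjusted p of 0.05 and 0 by DESeq2 (1.38% of all genes at 48 h and 3.37% at 4 h).

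Genes of the pro-survival proteins that BH3-only proteins bind were lower with 4 of the inhibitors at 4 h and, at 48 h, with ruxolitinib. Of 6 such genes, 5 were tested, since BCL2L10 did not pass the filter. Over all genes, the shares called at 4 h were 8.72% (ruxolitinib), 30.8% (pacritinib), 6.3% (momelotinib), 1.85% (fedratinib) and 0.834% (itacitinib). At 48 h they were 25.9%, 18.6%, 2.5%, 8.08% and 0.541% in the same order. At 4 h, ruxolitinib lowered BCL2 (-1.01 ± 0.12), BCL2L1 (-0.87 ± 0.04) and MCL1 (-0.34 ± 0.05), 3 of 5 genes, with a list median of -0.34. Pacritinib also lowered these 3 (-1.11, -0.65 and -0.16), as did momelotinib, while fedratinib lowered BCL2 and BCL2L1. At 48 h, ruxolitinib lowered the same 3 (-0.64, -0.46 and -0.26), and BCL2L2, named here after its value was seen, was higher at 0.25. Fedratinib raised BCL2L1 at 48 h (0.22). Momelotinib and pacritinib at 48 h and itacitinib at both times changed 0 of 5. The effectors gave 1 call of 3 in each of 3 comparisons, BAK1 lower at 4 h with ruxolitinib (-0.27 ± 0.08), momelotinib (-0.27 ± 0.08) and pacritinib (-0.29 ± 0.08), and no call elsewhere.

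**Figure D3:**
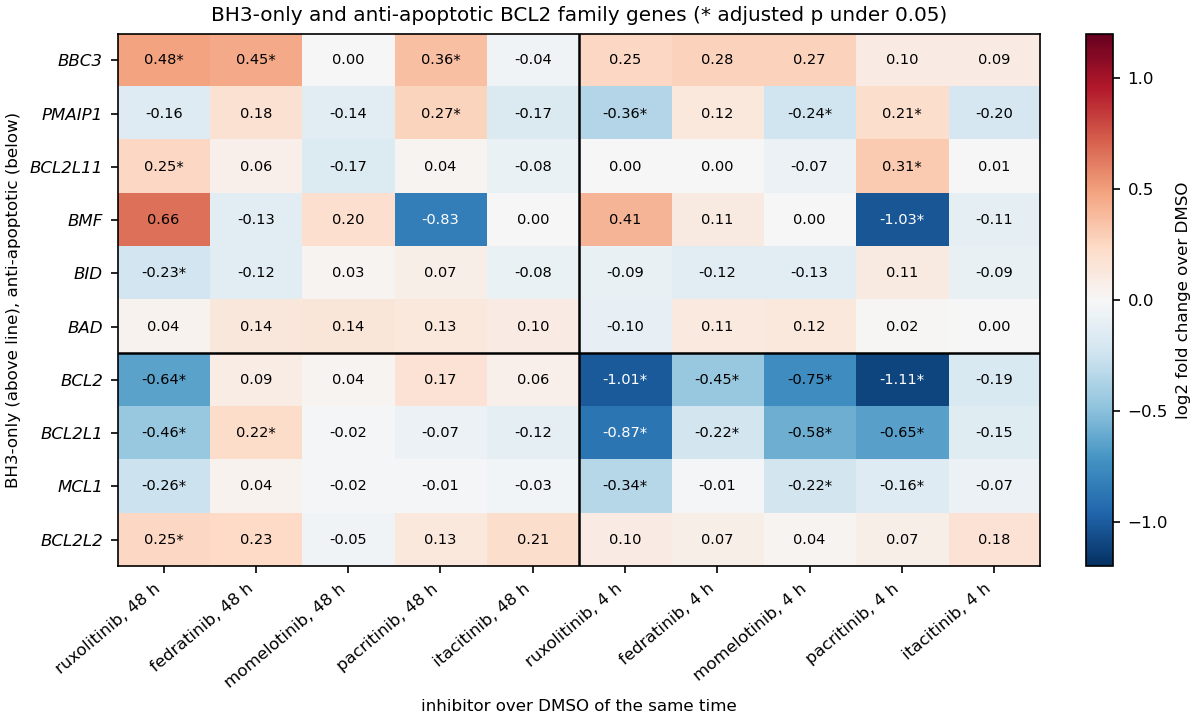
Log2 fold change over DMSO of the same time (colour and printed value; an asterisk marks an adjusted p under 0.05) for 6 BH3-only genes above the line and 4 pro-survival genes below it, with 48 h in the left 5 columns and 4 h in the right 5. At 4 h the deepest values are BCL2 with pacritinib (-1.11), BMF with pacritinib (-1.03) and BCL2 with ruxolitinib (-1.01), and at 48 h most pro-survival calls are in the ruxolitinib column.

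Downstream genes and relatives moved less evenly. In the list of apoptosome and caspase genes, pacritinib at 4 h lowered APAF1 (-0.31 ± 0.08), the apoptosome scaffold, and at 48 h it was lower with fedratinib (-0.29 ± 0.08) and pacritinib (-0.52 ± 0.08). Ruxolitinib at 48 h raised CASP6 (0.45 ± 0.12) and HTRA2 (0.21 ± 0.06) and lowered CYCS (-0.26 ± 0.05). Of 6 other genes with BH3-like motifs, BNIP3L, a mitophagy receptor, was called most often. At 48 h it was higher with ruxolitinib (0.51 ± 0.05) and lower with fedratinib (-0.23 ± 0.05) and pacritinib (-0.18 ± 0.05), and at 4 h it was higher with ruxolitinib (0.25 ± 0.05), momelotinib (0.22 ± 0.05) and pacritinib (0.17 ± 0.05).

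Known regulators of BH3-only genes were described from lists. At 48 h, 25.9% of all genes were called with ruxolitinib, 18.6% with pacritinib, 8.08% with fedratinib, 2.5% with momelotinib and 0.541% with itacitinib. At 4 h these shares were 8.72%, 30.8%, 1.85%, 6.3% and 0.834% in the same order. Of 10 FOXO factors and targets, ruxolitinib raised 4 at 4 h, among them CCNG2 (0.87 ± 0.14), FOXO4 (0.35 ± 0.07) and FOXO3 (0.33 ± 0.06), with a list median of 0.21. At 48 h ruxolitinib raised 2, TXNIP (0.40 ± 0.06) and FOXO3 (0.23 ± 0.06). Pacritinib lowered 7 of the 10 at 48 h, led by FOXO1 (-1.49 ± 0.37) and CCNG2 (-0.68 ± 0.16), with a list median of -0.27. At 4 h, where BCL2L11 was higher, pacritinib lowered 3, among them IRS2 (-0.52 ± 0.11) and SESN1 (-0.48 ± 0.08), and raised 2, among them TXNIP (0.29 ± 0.06), with a list median of -0.13. FOXO3 in the pacritinib libraries at 4 h was at 154.5 and 150.7 CPM, against 126.6 and 123.2 CPM with DMSO. Momelotinib at 4 h raised 2, fedratinib at 48 h lowered 1, and the other comparisons with DMSO gave 0. None of the BH3-only genes is in this list, and whether changes in it bear on BCL2L11 or the other members was not tested.

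Of 10 p53 targets, pacritinib lowered 6 at 4 h, led by GDF15 (-1.61 ± 0.41), CDKN1A (-1.11 ± 0.19) and FAS (-0.71 ± 0.26). Ruxolitinib at 48 h lowered 4 and raised 1. Over all genes, 30.8% were called with pacritinib at 4 h and 25.9% with ruxolitinib at 48 h. Pacritinib at 48 h, where BBC3 and PMAIP1 were higher, raised 1, SESN2 (0.21 ± 0.07), and lowered 2, with 18.6% of all genes called. Fedratinib at 48 h, where BBC3 was higher, raised 1, also SESN2 (0.31 ± 0.07), with 8.08% of all genes called. PMAIP1 was higher with pacritinib at 4 h, and BBC3 with ruxolitinib at 48 h. At 4 h, where PMAIP1 was lower, ruxolitinib lowered 2 of the p53 targets, GDF15 (-2.33 ± 0.45) and CDKN1A (-0.61 ± 0.18), with 8.72% of all genes called. Momelotinib at 4 h, where PMAIP1 was also lower, changed 0 of them, with 6.3% of all genes called. Of 8 ATF4 and CHOP stress genes, fedratinib raised 5 at 48 h (8.08% of all genes called), led by CHAC1 (1.78 ± 0.17), DDIT4 (1.10 ± 0.12) and ASNS (0.95 ± 0.13). Pacritinib raised 5 at 48 h as well (18.6% of all genes called), with CHAC1 at 1.54 ± 0.18. At 4 h, where PMAIP1 was also higher, pacritinib raised 4 and lowered 3, with 30.8% of all genes called. The lowered genes were ATF3 (-1.44 ± 0.18), DDIT3 (-0.81 ± 0.12) and TRIB3 (-0.57 ± 0.08). In DMSO alone, 7 of the 8 fell at 48 h relative to 4 h, with 8.67% of all genes called. They were led by ATF3 (-3.27 ± 0.23), DDIT4 (-2.91 ± 0.11) and CHAC1 (-2.34 ± 0.16), beside the falls of BBC3 and PMAIP1 in the same comparison. The ruxolitinib libraries at 48 h, where BBC3 also rose, had 1 of the 8 higher and 2 lower (25.9% of all genes called). Where PMAIP1 was lower at 4 h, ruxolitinib raised 1 of the 8 and lowered 2, DDIT4 (-0.55 ± 0.09) and TRIB3 (-0.52 ± 0.08). Momelotinib at 4 h lowered 1 of the 8, TRIB3 (-0.42 ± 0.08). The shares of all genes called were 8.72% and 6.3%. Among 12 kinases and adaptors that act on BH3-only proteins, ruxolitinib lowered 4 at 4 h (8.72% of all genes called). The falls were led by PIM2 (-2.09 ± 0.06) and PIM1 (-1.69 ± 0.05), kinases that phosphorylate BAD. Also at 4 h, pacritinib lowered 6 and raised 1 (30.8% of all genes called). Momelotinib lowered 2 (6.3%), fedratinib lowered 2 (1.85%) and itacitinib changed 0 (0.834%). PIM2 was among the genes lowered by pacritinib (-1.03 ± 0.06), momelotinib (-0.94 ± 0.06) and fedratinib (-0.35 ± 0.05). Whether changes in these lists bear on the members was not tested.

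For each tested member, the 2 genes with the most similar pattern were found by Pearson's r over the 12 group means of log2 CPM, among genes averaging 3 or more in log2 CPM. BBC3 was closest to UHRF1BP1 (r = 0.973) and PPP1R15A (r = 0.961), a phosphatase subunit induced in the integrated stress response and a member of the stress list. The 12 means fall into 2 clusters by time. Within a time (6 means), r with PPP1R15A was 0.894 at 48 h and 0.536 at 4 h. Against DMSO at 48 h, PPP1R15A was higher with ruxolitinib (0.23 ± 0.05, adjusted p = 0.000696) and pacritinib (0.21 ± 0.05, adjusted p = 0.00422). It was not called with fedratinib at 48 h (0.11 ± 0.05, adjusted p = 0.234). For the other members, r with the most similar gene was also taken within each time: APOL6 for PMAIP1 (0.857 at 48 h and 0.955 at 4 h), TEX2 for BCL2L11 (0.968 and 0.949), LEMD3 for BMF (0.972 and 0.960) and TM9SF4 for BID (0.904 and 0.933). PON2 was closest to BAD (r = 0.848 over 12 means), a gene with little variation to follow, and NELFCD to BIK (r = 0.862), where counts are near 0. These are the highest values among all genes searched and are descriptions.

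**Figure D4:**
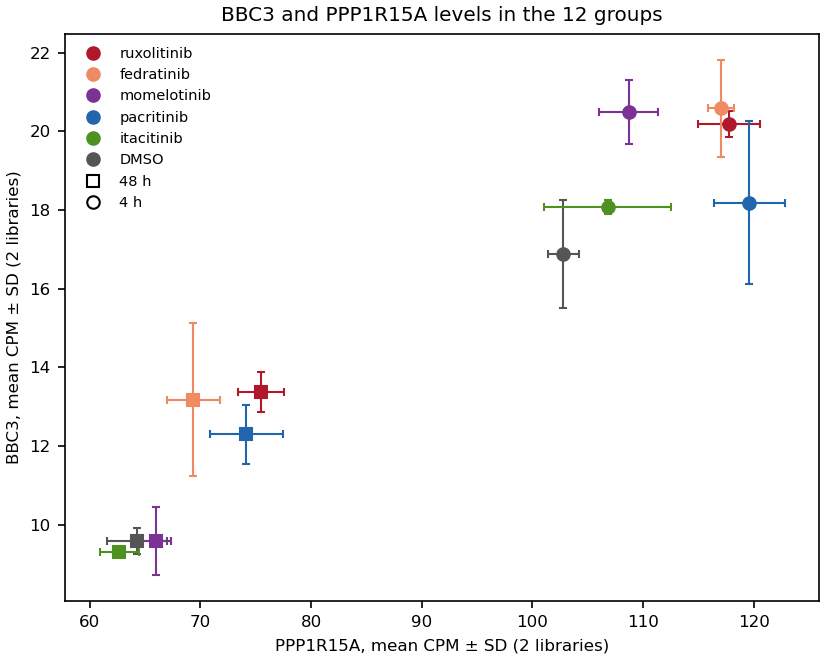
Mean CPM of BBC3 (vertical axis) and PPP1R15A (horizontal axis) in the 12 groups, with bars of ± 1 SD over 2 libraries; squares are 48 h, circles 4 h, and colours the treatments; the axes do not start at 0. The 48 h groups lie at 9.31 to 13.4 CPM of BBC3 and the 4 h groups at 16.9 to 20.6 CPM. Within 48 h, the means of ruxolitinib, fedratinib and pacritinib lie above those of the other 3 groups on both axes. PPP1R15A with fedratinib at 48 h was not called against DMSO.

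Total counts per library were 32153866 to 56618281. The 10 erythroid and megakaryocytic markers of HEL cells were all at 1 CPM or more in the median library. Their summed level was 4857 to 6696 CPM, and 9 of the 10 were higher with ruxolitinib at 48 h (25.9% of all genes called). Of 6 lymphoid markers 2, CD2 and CD79A, reached 1 CPM (summed 24.8 to 36.2 CPM), and of 6 fibroblast and epithelial markers 0 did (summed 0.431 to 1.51 CPM). None of the 3 marker lists held a gene at 0 in every library. The JAK-STAT readout genes CISH, PIM1, SOCS2 and SOCS3 all fell with ruxolitinib at both times and with pacritinib at 4 h. With fedratinib or itacitinib, 0 of the 4 were called at either time. CISH, PIM1 and SOCS3 with fedratinib at 4 h still lay below both DMSO libraries, with a list median of -0.18. SOCS3 was at 24.3 and 24.6 CPM with fedratinib at 4 h, against 33.4 and 32.1 CPM with DMSO. Momelotinib lowered 3 of the 4 at 4 h, and pacritinib at 48 h raised 3, CISH (0.43), SOCS2 (0.31) and PIM1 (0.15). Of 4 tested ERK readout genes, ruxolitinib lowered 3 at 48 h and 4 at 4 h, pacritinib 2 and 4, momelotinib 2 and 3, and itacitinib 2 and 1. Fedratinib raised EGR1 at 48 h and lowered ETV5 at 4 h. Shares of all genes called at 48 h and 4 h were 25.9% and 8.72% with ruxolitinib and 18.6% and 30.8% with pacritinib. They were 2.5% and 6.3% with momelotinib, 0.541% and 0.834% with itacitinib, and 8.08% and 1.85% with fedratinib. The signal recognition particle RNA took 3.10% to 4.76% of counts with inhibitors and 3.05% to 3.36% with DMSO at 48 h, and 2.80% to 3.98% with inhibitors and 2.42% to 2.52% with DMSO at 4 h. Its part in the results was not tested. In bulk RNA, fewer cells with a message and less message per cell cannot be told apart.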

How the data were processed

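HEL cells given 500 nM of 1 of 5 JAK inhibitors or DMSO for 48 h or 4 h were sequenced as total RNA on a NovaSeq, per the labels. Per the submitters' processing notes, bcl2fastq, STAR 2.5.1a, GRCh38 and edgeR were used; for the counting tool, annotation and strand setting nothing is given in the sources used here. The deposited values are raw read counts per gene from the authors, with replicates kept apart. Of 34343 rows, 130 repeated a gene ID, leaving 34213 genes.

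The counts were filtered with filterByExpr, scaled by TMM and fitted with edgeR 4.0.16 (R 4.3.3) over all 24 libraries, with 1 mean per group and a robust quasi-likelihood fit (12 residual degrees of freedom, median prior 33.95). Each of 36 comparisons was adjusted by Benjamini-Hochberg over 16076 genes. CPM uses TMM-scaled library sizes, and RPKM divides by GENCODE exonic length. SE is the log2 fold change over the root of F. DESeq2 1.42.0 and other settings were alternatives. The script was tested on simulated data. No pair of replicates agreed within sampling noise.

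The members and gene lists were chosen with earlier results of these data known. Besides the 8 members, a gene was named if it was among the 3 called genes of a list with the largest change, or among the 2 genes most like a member. Some genes that this rule selects are not reported here.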

Additional observations from a re-analysis of the deposited data

Results flagged for a closer look

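The effect of 2 inhibitors on BCL2L11, the BIM gene, differed between the times, by a test of the difference itself in edgeR's quasi-likelihood fit. The ruxolitinib effect over DMSO was 0.25 larger at 48 h than at 4 h on the log2 scale (95% interval 0.09 to 0.42). BCL2L11 was at 81.9 and 77.9 CPM with ruxolitinib and 65.0 and 69.4 CPM with DMSO at 48 h, and at 63.3 and 65.9 CPM with ruxolitinib and 66.5 and 63.2 CPM with DMSO at 4 h. The pacritinib effect ran the other way, with a difference of -0.28 (95% interval -0.44 to -0.11). Its libraries were at 68.7 and 69.0 CPM at 48 h and at 77.3 and 83.8 CPM at 4 h, beside the same DMSO libraries. Both tests share the 4 DMSO libraries.

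When any 1 of the 8 libraries was left out, the ruxolitinib difference stayed between 0.21 and 0.30, and its call was lost in 7 of the 8 fits, all but the one without DMSO 48 h replicate 2. The pacritinib difference stayed between -0.34 and -0.22, and its call was lost in 3 of the 8 fits.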

How the results depend on the processing

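Over 252 values (7 members in 36 comparisons), 57 were called. Of 3027 values under alternatives, 0 changed sign where the main or the alternative value was called. Sign changes between uncalled values were not counted. DESeq2, its size factors and protein-coding genes alone changed 0 calls. Without the low-count filter 1 call was lost, with a stricter one 1 was gained, without the robust prior (added after the data were seen) 1 was lost, and with libraries of 1 time only 2 were lost and 2 gained. BMF with ruxolitinib against fedratinib at 48 h (0.79 ± 0.29) accounted for the loss without a filter (adjusted p = 0.0578), without the robust prior (0.0516) and, in part, with 1 time only (0.0577). That last setting gives no value for contrasts across times.

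Replicate numbers showed no shared pairing over the groups as a whole. Deviations of same-numbered libraries correlated between -0.346 and 0.380 over 66 pairs of groups (median 0.026), with r over 0.1 in 18 pairs. Pairing within some of the groups was not tested. With the replicate block, 0 calls were lost and 2 gained, both BID at 48 h, ruxolitinib against itacitinib (-0.15, adjusted p = 0.0334) and pacritinib against itacitinib (0.15, adjusted p = 0.0426).

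Leaving out single libraries moved the counts most. With 1 library left out, members called ranged between 0 and 1 for fedratinib and between 0 and 1 for pacritinib at 48 h, between 0 and 1 for momelotinib and between 1 and 3 for pacritinib at 4 h, and between 0 and 2 for the difference between the times. Ruxolitinib at 48 h gave 2 or 3. Genes of the lists were not refitted. Depth limits BMF, BIK and HRK.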

Other observations

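The level of BCL2L11 relative to that of BCL2L1, the BIM and BCL-XL messages, was taken in each library as the log2 ratio of their CPM. This ratio was chosen after both genes' values were seen, so it has no test and shares its numbers with the comparisons above. At 48 h it was -0.96 and -0.98 with ruxolitinib, against -1.71 and -1.65 with DMSO. Pacritinib libraries (-1.59 and -1.55) also lay above DMSO at 48 h, and the other 3 inhibitors gave -1.85 to -1.58. At 4 h it was -0.95 and -0.78 with pacritinib, -1.03 and -0.90 with ruxolitinib and -1.37 and -1.26 with momelotinib, against -1.80 and -1.86 with DMSO. Fedratinib (-1.56 and -1.67) and itacitinib (-1.64 and -1.72) libraries lay closer to DMSO at 4 h, above it in all 4.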
